A study of Mus musculus with 4 samples.

Results

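The 44 genes described here are transcribed in the dividing part of the cell cycle: 19 serve DNA synthesis (S phase) and 25 serve the second gap phase and mitosis (G2 and M). They were taken by name from a combined table of 20284 genes, and all 44 were found in it. The table holds single-cell RNA counts from mouse embryoid bodies, free-floating aggregates in which embryonic stem cells differentiate into mixed tissues. Bodies were collected on day 9 and came from control stem cells or from stem cells that had been given a pulse of DUX, a transcription factor of the early embryo, with 2 biological replicates in each group. The DUX construct, the stem cell line, the length of the pulse and whether each line was 1 clone are not given in the sources used here.

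As background, cells commit to division when the cyclin D and cyclin E kinases free the E2F factors, which switch on the genes of DNA replication. Later in the cycle the MuvB complex, with B-Myb and FOXM1, switches on the genes of G2 and mitosis, many of which carry a short promoter element called the CHR, often near a CCAAT box. Stem-like cells usually divide fast, whereas heart muscle and red blood cells slow down or leave the cycle as they mature.

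The sets were chosen by phase and not by sequence, so their promoters were read for these letters. RefSeq windows (mouse build GRCm38.p6, 250 bases before to 50 after each annotated start) matched 37 of the 44 genes, 16 of S phase and 21 of G2 and M. Both strands were searched. The E2F letters TTTCCCGC, TTTGGCGC, TTTCGCGC or TTTGCCGC stood in 6 of 16 S phase genes and 1 of 21 G2 and M genes (Cdk1), against 2.60% of all 27025 genes with a window. The shorter E2F letters TCCCGC, the variant that reads TGGCGC or the variant that reads TCGCGC, which overlap the longer ones, stood in 14 of 16 and 12 of 21, against 34.04% of all genes. The CHR letters TTTGAA or their variant TTCGAA stood in 4 of 16 S phase genes and 17 of 21 G2 and M genes, against 21.7% of all genes. CCAAT stood in 11 of 16 and 18 of 21, against 41.1% of all genes. A gene was counted if any of its windows held the letters. These matches describe letters only. To show what each kind of promoter looks like, the 200 bases before the start follow for 3 genes of each set, 5′ to 3′ on the gene's strand, with the E2F matches of 8 letters in capitals in the first 3 (shorter matches are not marked) and CHR letters in capitals in the last 3.
Mcm5, chr8:75109309-75109508, plus strand: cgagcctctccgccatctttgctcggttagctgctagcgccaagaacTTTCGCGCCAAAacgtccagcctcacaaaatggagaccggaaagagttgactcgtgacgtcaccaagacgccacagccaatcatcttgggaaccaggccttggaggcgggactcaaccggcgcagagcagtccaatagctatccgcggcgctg
Mcm6, chr1:128359706-128359905, minus strand: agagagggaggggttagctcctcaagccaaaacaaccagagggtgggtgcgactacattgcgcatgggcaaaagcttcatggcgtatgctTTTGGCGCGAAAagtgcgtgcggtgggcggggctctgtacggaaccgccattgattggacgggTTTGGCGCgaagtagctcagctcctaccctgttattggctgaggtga
Cdc6, chr11:98907951-98908150, plus strand: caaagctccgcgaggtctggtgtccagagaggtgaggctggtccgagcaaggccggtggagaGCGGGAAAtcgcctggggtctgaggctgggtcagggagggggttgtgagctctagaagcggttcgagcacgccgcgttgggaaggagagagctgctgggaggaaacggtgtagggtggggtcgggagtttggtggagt
Ube2c, chr2:164769729-164769928, plus strand: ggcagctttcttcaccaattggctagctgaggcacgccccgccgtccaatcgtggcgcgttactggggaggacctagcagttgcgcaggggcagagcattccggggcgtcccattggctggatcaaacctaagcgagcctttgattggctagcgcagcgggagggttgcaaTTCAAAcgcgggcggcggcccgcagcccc
Top2a, chr11:99024190-99024389, minus strand: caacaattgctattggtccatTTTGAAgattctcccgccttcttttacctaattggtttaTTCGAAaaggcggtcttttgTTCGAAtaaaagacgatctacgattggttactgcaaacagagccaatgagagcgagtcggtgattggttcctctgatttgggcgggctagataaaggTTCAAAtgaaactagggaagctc
Cdc20, chr4:118437344-118437543, minus strand: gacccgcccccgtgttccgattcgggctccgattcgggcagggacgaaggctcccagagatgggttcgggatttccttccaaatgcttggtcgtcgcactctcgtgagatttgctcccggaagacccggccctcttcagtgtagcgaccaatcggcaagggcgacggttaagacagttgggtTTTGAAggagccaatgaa
In Top2a 4 CHR matches lay in these 200 bases. Ube2c and Cdc20 had 1 each, beginning 29 and 18 bases before the start.

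Of 10090 cells in the table, 8876 passed the filter of 500 detected genes and no more than 10% mitochondrial UMIs. Each library kept 1353 to 2824 cells and 36462169 to 96344329 UMIs (unique molecular identifiers, 1 for each captured RNA molecule), with a median of 27260 to 30402.5 UMIs a cell. The median mitochondrial share was 6.22% and 6.42% in the control libraries and 4.01% and 4.54% in the DUX-pulsed ones. Barcodes found in more than 1 library numbered 8. The makeup of the cultures differed: clusters 6 to 9 and the visceral and primitive endoderm-like cluster were found almost entirely in control libraries, and cluster 4 and one cardiomyocyte-like cluster mostly in DUX-pulsed ones.

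Summed over all cells of a library, the S phase genes were lower in both DUX-pulsed cultures than in either control, and the G2 and M genes overlapped. In such sums, fewer cells of a type and less RNA per cell cannot be told apart. The 19 S phase genes together took 13.96 and 13.8 of every 10000 UMIs in the control libraries, and 12.04 and 10.5 in the DUX-pulsed ones. The means were 13.9 ± 0.112 and 11.3 ± 1.08 (SD, n = 2 each, exact two-sided permutation p = 0.333), a log2 ratio of -0.30. The 25 G2 and M genes took 27.0 and 27.9 in controls and 30.4 and 26.6 in DUX-pulsed libraries (27.5 ± 0.640 and 28.5 ± 2.67, exact permutation p = 1), a log2 ratio of 0.05 that was -0.05 without DUX-pulsed replicate 1. With 2 libraries against 2 the smallest p this exact test can give is 0.333, so it cannot reach 0.05.

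Gene by gene, edgeR's quasi-likelihood test over 16140 genes (Benjamini-Hochberg adjusted p under 0.05) called 2 members higher and 4 lower in DUX-pulsed cultures, while 15.6% of all tested genes were called higher and 11.1% lower. All 44 members passed the filter on low counts. The median log2 fold change was -0.21 over the S phase genes and 0.13 over the G2 and M genes, against -0.0021 over all genes tested. Levels below are CPM, a gene's count scaled to the same total in every library by the TMM method, and each fold change is a log2 value ± its standard error.

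**Figure D1:**
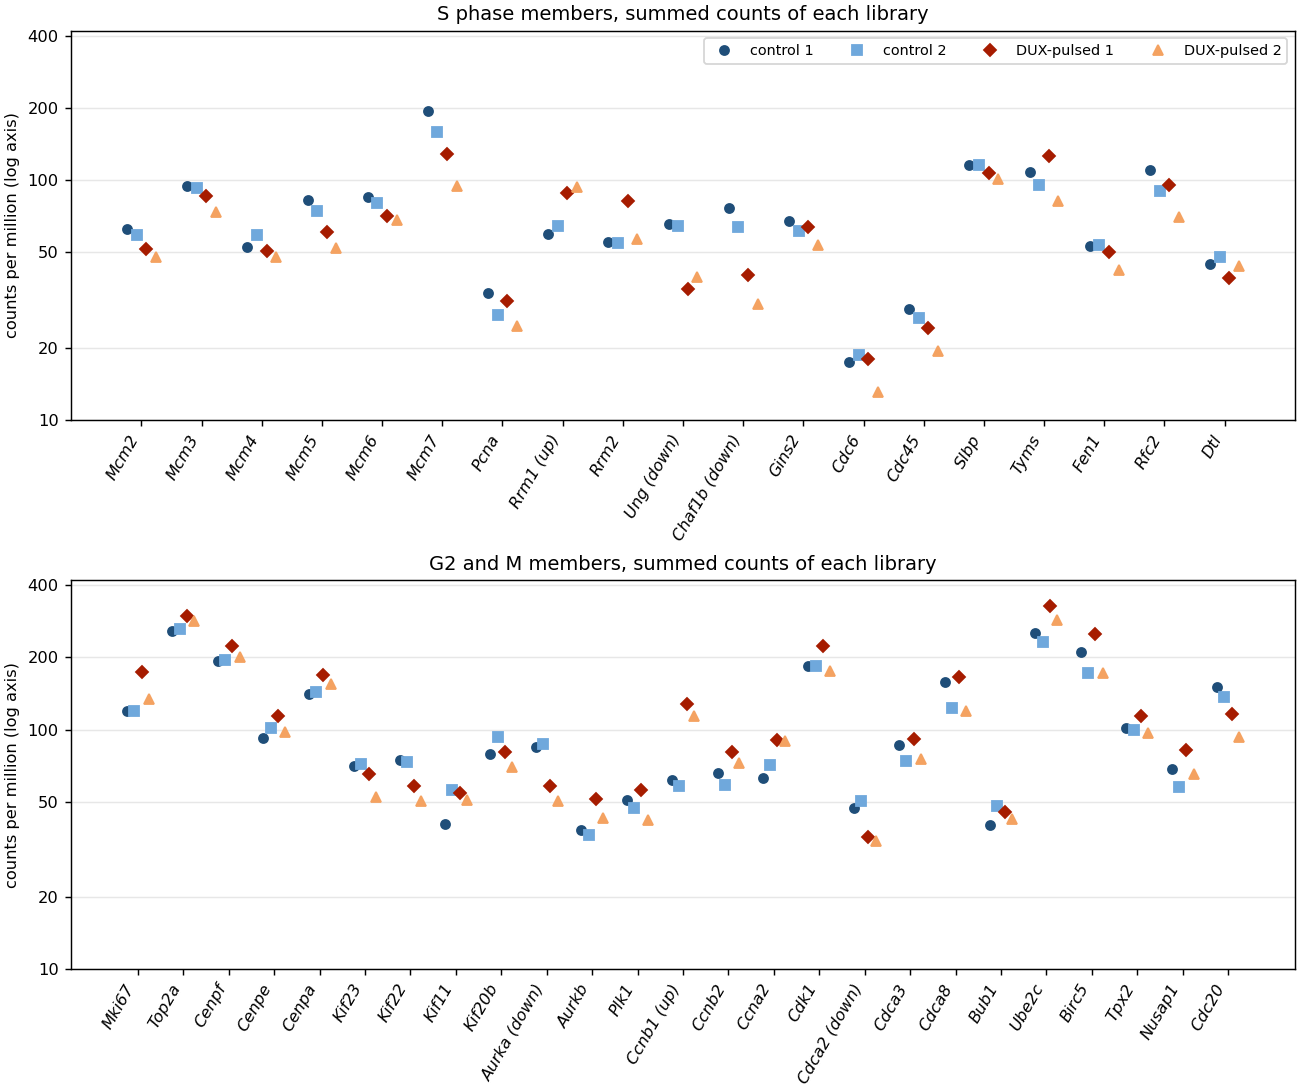
Level of each member in each of the 4 libraries, in CPM on a log axis, for the 19 S phase genes (top) and the 25 G2 and M genes (bottom). Points are single libraries, and (up) and (down) mark the 6 members called by edgeR; Ccnb1 stands at 61.5 and 57.9 in control and 128 and 114 in DUX-pulsed libraries.

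Among the replication genes, the subunits of the MCM helicase, which unwinds DNA at origins, were lower in DUX-pulsed libraries without passing the test. Mcm2 was at 62.6 and 59.3 CPM in control and 51.5 and 47.7 in DUX-pulsed libraries. Mcm5 stood at 82.7 and 74.6 against 61 and 52.3 (-0.47 ± 0.155, edgeR adjusted p = 0.0711). For Mcm7 the values were 195 and 159 against 128 and 94.5 (-0.66 ± 0.206, edgeR adjusted p = 0.0606), and the median fold change of the 100 tested genes nearest to it on its chromosome was -0.35. Mcm3, Mcm4 and Mcm6 had fold changes of -0.24 to -0.19. The groups did not overlap for any of Mcm2 to Mcm7. Such separation held for 14 of the 19 S phase genes, 12 of them lower, and for 67.6% of all tested genes.

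Pcna, the sliding clamp of the DNA polymerases, was at 33.7 and 27.4 CPM in control and 31.2 and 24.5 in DUX-pulsed libraries, which overlap. Ung, a glycosylase that removes uracil from new DNA (chr5:114130386-114139323, mm10), stood at 65.7 and 64.7 against 35.2 and 39.6 and was called lower (-0.80 ± 0.143, edgeR adjusted p = 0.0113); its neighbours' median was -0.23. Chaf1b, a subunit of the factor that places histones on new DNA (chr16:93883901-93906115), fell from 76.9 and 63.8 to 40.3 and 30.5 (-0.99 ± 0.194, edgeR adjusted p = 0.0153), beside a neighbours' median of -0.34. For both genes the gap between the groups was wider than the spread within either.

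The subunits of ribonucleotide reductase, the enzyme that makes deoxynucleotides, had fold changes above 0. Rrm1 (chr7:102441695-102469771) rose from 59.7 and 64.7 to 88.8 and 93.6 CPM (0.55 ± 0.141, edgeR adjusted p = 0.0346). Rrm2 was at 55.1 and 54.6 in control and 81.8 and 56.9 in DUX-pulsed libraries (0.34 ± 0.201, edgeR adjusted p = 0.259), so that DUX-pulsed replicate 1 alone stood well above the controls. The remaining S phase genes (Gins2, Cdc6, Cdc45, Slbp, Tyms, Fen1, Rfc2 and Dtl, which load, clamp or join replicating DNA, supply thymidylate and histone messages, or act in the checkpoint) ranged from -0.35 (Cdc45) to 0.03 (Tyms), and none was called.

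Ccnb1, the cyclin that activates Cdk1 at entry into mitosis (chr13:100778650-100786570), had the highest fold change of the 44. It stood at 61.5 and 57.9 CPM in control and 128 and 114 in DUX-pulsed libraries (1.02 ± 0.147, edgeR adjusted p = 0.00645). The 100 tested genes nearest to it on chromosome 13 had a median of 0.85, a value near its own. Ccnb1 was 1 of 4 members, with Chaf1b, Mcm7 and Rfc2, in regions whose median was 0.3 or more from 0, and the part of these regional shifts in the changes was not tested.

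Its partner kinase Cdk1 was at 185 and 184 CPM against 224 and 175, with the DUX-pulsed libraries on either side of the controls. Aurka, the kinase of the spindle poles (chr2:172356190-172370535), fell from 84.5 and 86.8 to 58.3 and 50.4 (-0.66 ± 0.148, edgeR adjusted p = 0.0235). Cdca2, a chromosome-bound partner of protein phosphatase 1 (chr14:67676331-67715841), fell from 46.9 and 50.1 to 35.6 and 34.2 (-0.47 ± 0.136, edgeR adjusted p = 0.0489). In both, the lower control library was well above the higher DUX-pulsed one. Both were also among the leading genes of cluster 7, of which the controls held 268 and 310 cells and the DUX-pulsed libraries 6 and 12. So were Cenpf, Top2a, Kif23, Kif22 and Kif11, which were not called. The part of that cluster in the falls of Aurka and Cdca2 was not tested.

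The proliferation marker Mki67 was at 120.0 and 119 CPM in control and 173 and 134 in DUX-pulsed libraries (0.36 ± 0.174, edgeR adjusted p = 0.178). Top2a, which untangles DNA before chromosomes separate, was at 258 and 263 against 298 and 285 (0.16 ± 0.142, edgeR adjusted p = 0.434). Plk1, a kinase of spindle assembly, was at 50.8 and 47.2 against 55.9 and 41.7. Both DUX-pulsed libraries were above both controls for Mki67 and Top2a, and the groups overlapped for Plk1. The G2 and M genes that were not called ranged from -0.46 (Cdc20, the activator of the anaphase-promoting complex) to 0.43 (Ccna2, the cyclin of late S and G2). Of the 25 G2 and M genes, 9 were higher and 5 lower without overlap, while the groups did not overlap for 67.6% of all tested genes.

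These calls depended on single libraries. Without control replicate 1 there were 1 higher and 0 lower, without control replicate 2 there were 1 and 1, and without DUX-pulsed replicate 2 there were 2 and 2. Ccnb1 was called in all 12 alternatives that tested it, Ung in 11 of 13, Chaf1b in 11 of 12, Aurka and Rrm1 in 9 of 13 and Cdca2 in 6 of 13.

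Genes that act around the cycle were read from lists chosen alongside the members, and each count stands against the 15.6% of all tested genes called higher and the 11.1% called lower. Of 25 regulators of G1 and of entry into S, 8 rose and 0 fell, and 2 of the 8, E2f2 and E2f3, lay in shifted regions. They included the D cyclins Ccnd1 (9.10 and 9.41 against 41.9 and 29.6 CPM; 1.95 ± 0.204, edgeR adjusted p = 0.00293) and Ccnd2 (113 and 115 against 280.1 and 274; 1.28 ± 0.141). Within mesenchyme-like cells, a class described below, 0 of the 25 were called higher, against 5.01% of all genes tested there, and Ccnd2 was called lower. Within cardiomyocyte-like cells 4 of 23 tested were called higher, Ccnd1 but not Ccnd2 among them, against 8.79% of all genes. The part of the makeup of the cultures in the whole-culture rises was not tested. Of 8 CDK inhibitors, which brake the cyclin kinases, 6 rose and 0 fell, with a median of 1.27. Among them were Cdkn1c (3.71 and 1.77 against 32.8 and 18.8; 3.23 ± 0.436) and Cdkn2b (5.40 and 5.46 against 16.6 and 20.9; 1.79 ± 0.191). Cdkn2a and Cdkn2b were also among the leading genes of cluster 4. The controls held 28 and 18 cells of it and the DUX-pulsed libraries 406 and 275. Cdkn1c was a leading gene of the trophoblast-like cluster, with 1 and 0 control cells and 40 and 16 DUX-pulsed cells. The part of these clusters in the changes was not tested. Within mesenchyme-like cells 1 of 8 inhibitors was called higher, and within cardiomyocyte-like cells 3 of 6 tested, against 5.01% and 8.79% of all genes. In cluster 12 0 of 7 tested were called.

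In a list of 49 other G2 and M genes 6 rose and 1 fell, shares that were not above those of all genes, and 1 of the 7, Cks2, lay in a shifted region. Pttg1, the securin that restrains separase until anaphase, fell from 166 and 148 to 95.5 and 89.3 CPM (-0.77 ± 0.148, edgeR adjusted p = 0.0146). Of 8 MuvB and FOXM1 regulators, Mybl1 rose (0.91 ± 0.227) and Mybl2, which encodes B-Myb, fell (-0.63 ± 0.181, edgeR adjusted p = 0.0499). Of 14 p53 targets 4 rose, Plk2 in a shifted region among them, and 1 fell. Of 8 quiescence and antiproliferative genes 3 rose, Gas1 in a shifted region among them, and 1 fell.

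A phase was then given to each of 7550 cells with at least 5000 UMIs, thinned to that depth, from a score of the S phase genes and a score of the G2 and M genes; cells with neither score above 0 were called G1. Cells below that depth were left out and numbered 399 and 472 in control and 160 and 295 in DUX-pulsed libraries. These calls are ranges of a score and do not by themselves show that a cell divides. Cells whose higher score lay within 0.05 of the cut made up 12.2% to 15.6% of each library. Free RNA in the droplets was not removed, and its part in the calls was not tested.

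In controls 40.9% and 39.0% of cells were called S, and in DUX-pulsed libraries 27.0% and 26.2% (39.9 ± 1.35% and 26.6 ± 0.549%, SD, n = 2 each, exact permutation p = 0.333). Both DUX-pulsed libraries lay far below both controls. The difference of -13.3 points was -5.28 points with scores from the members and the other S, G2 and M genes together, and -8.65 points at a score cut of 0.1. Without thinning the shares were 40.4% and 37.2% against 28.1% and 24.5%. Shares called G2/M were 26.8% and 23.8% in control and 33.7% and 24.95% in DUX-pulsed libraries, which overlap (25.3 ± 2.15% and 29.3 ± 6.21%, exact permutation p = 0.667), and 27.4% and 26.6% against 33.2% and 29.3% without thinning. The exact binomial 95% intervals of single libraries, which cover counting error only, spanned 38.9% to 42.9% for S in control replicate 1 and 23.6% to 28.9% in DUX-pulsed replicate 2.

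The lists of other S phase genes and other G2 and M genes, outside the scores, were higher in cells called S or G2/M than in cells called G1 in each library. The 8 CDK inhibitors, also outside the scores, were lower in cells called S than in cells called G1 in each library. In cells called G2/M they were higher than in cells called G1 in each library. They took 3.05 and 3.14 of every 10000 UMIs in G2/M against 2.97 and 2.99 in G1 of control replicates 1 and 2. In DUX-pulsed replicates 1 and 2 they took 4.52 and 4.20 against 4.20 and 3.48. The 31 other S phase genes took 7.50, 8.03, 5.70 and 5.10 of every 10000 UMIs in cells called G1 of control 1, control 2, DUX-pulsed 1 and DUX-pulsed 2, and 20.5, 21.5, 24.0 and 22.1 in cells called S. In cells called G2/M they took 16.8, 17.5, 17.9 and 16.3, nearer to the level of S than to that of G1. The 49 other G2 and M genes took 9.33, 10.3, 8.18 and 8.66 in cells called G1 and 53.8, 63.0, 59.9 and 69.0 in cells called G2/M. Over the 7550 cells the members of each set also moved together, with Pearson's r of a gene with the sum of the others of its set of 0.43 (Bub1) to 0.80 (Cenpf) for G2 and M and 0.24 (Mcm2) to 0.48 (Rrm2) for S phase. The sums of the 2 sets had r = 0.185. These cells share libraries and 1 thinned depth, and the values are descriptions.

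**Figure D2:**
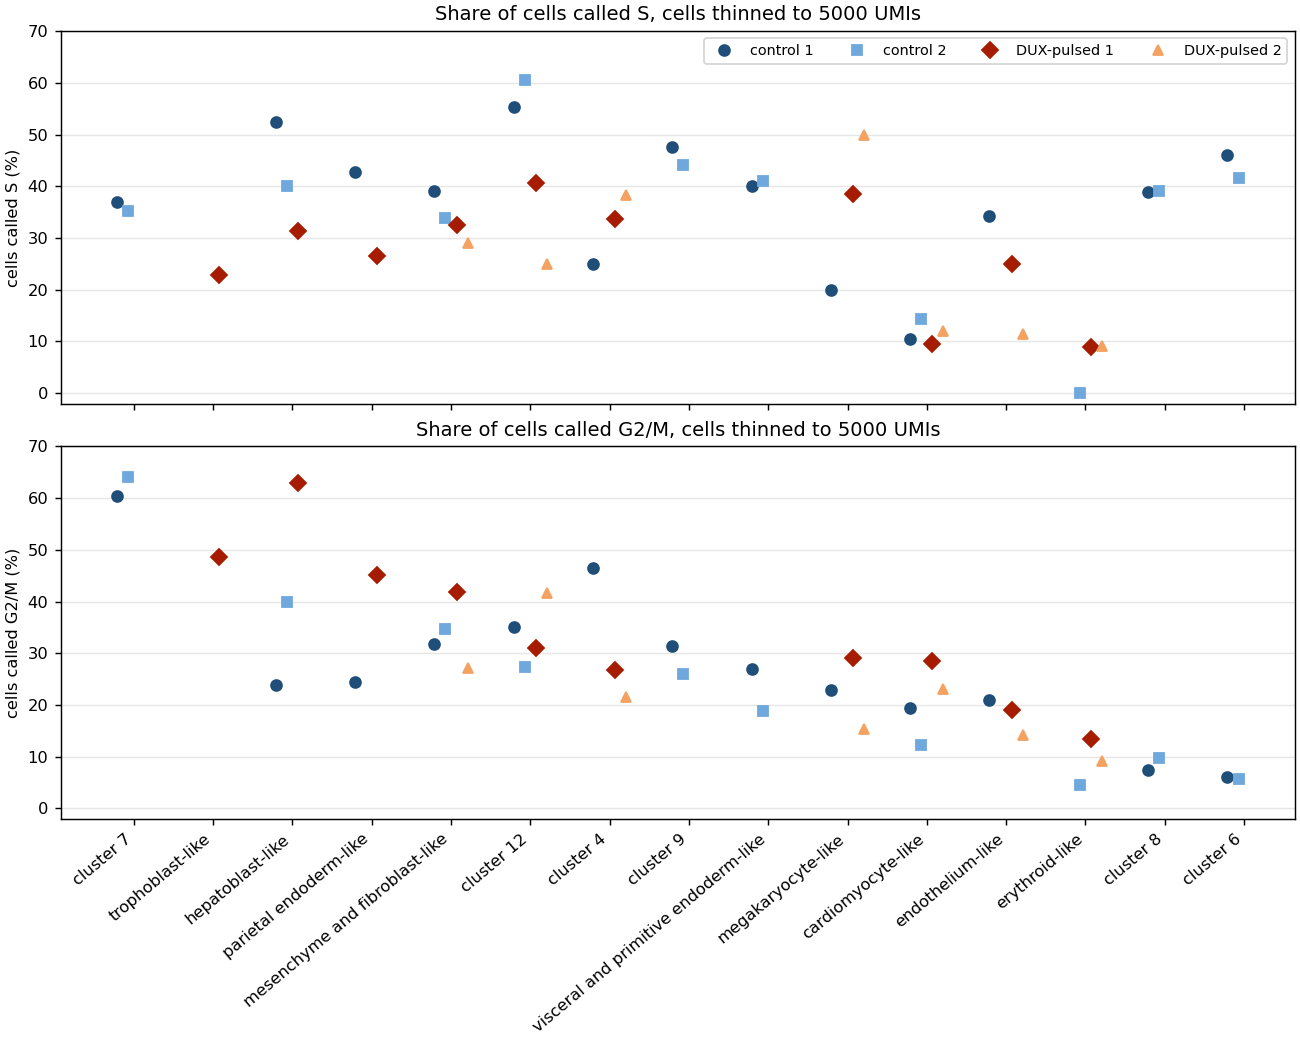
Share of cells called S (top) and G2/M (bottom) in each cell class with at least 20 cells in a library, each cell thinned to 5000 UMIs; points are single libraries. Cluster 7 (60.4% and 64.2%) and the hepatoblast-like cells of DUX-pulsed replicate 1 (62.9%) are highest for G2/M, clusters 6 and 8 are low for G2/M as drawn, apart from cluster 7, and the cardiomyocyte-like and erythroid-like classes are low for S.

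Cells were grouped by clustering without 124 cell cycle genes, and 10 of 17 clusters were named from markers. Cluster 7, nearly all of it control cells (268 and 310 against 6 and 12), was led by Cenpf, Ly6h, Top2a and Kif23 all the same, so its shares of 60.4% and 64.2% called G2/M describe how it was made. Clusters 6 and 8, led by Ly6h and Rarres1 and by Onecut2 and Tff3, had 41.6% to 46.0% and 38.9% to 39.1% of control cells called S. In the same clusters 5.65% to 6.03% and 7.41% to 9.77% were called G2/M. The summed G2 and M level there was 6.45 to 10.5 per 10000 UMIs, against 25.03 and 25.5 in cluster 9 (Trh, Dnmt3b), whose S share was 44.1% and 47.6%. The summed S level was also lower there, at 10.3 to 10.8 in cluster 6 and 10.0 to 11.5 in cluster 8, against 14.8 and 15.2 in cluster 9. Similar shares called S thus went with unlike levels of the S phase genes. Cells that mitotic genes placed in cluster 7, which like cluster 6 was led by Ly6h, are not counted in clusters 6 and 8, so the low G2/M shares describe these clusters as drawn.

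Erythroid-like cells, named from embryonic and adult globins, had the lowest summed level of S phase genes, 2 to 3.38 per 10000 UMIs. In control replicate 2 none of 22 such cells was called S, which allows a share of up to 13.6% by a floor of 3 cells and of up to 15.4% by the exact binomial 95% interval. Cardiomyocyte-like cells had 9.5% to 14.3% called S. In 3 libraries with enough cells, hepatoblast-like cells had 31.4% to 52.4% called S and 23.8% to 62.9% called G2/M.

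**Figure D3:**
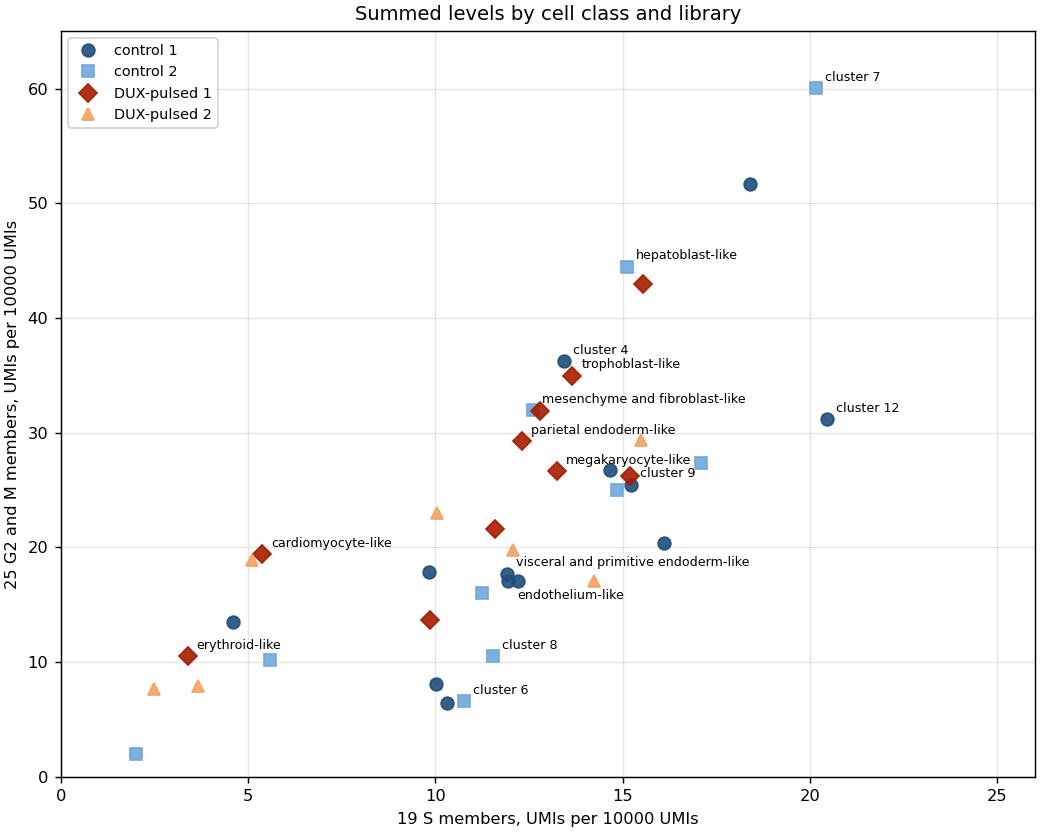
Summed level of the 19 S phase genes (x) and the 25 G2 and M genes (y) in UMIs per 10000 UMIs, for each cell class with at least 20 cells in a library; points are single libraries and each name stands by one point of its class. Cardiomyocyte-like cells of the DUX-pulsed libraries (5.37 and 5.10 on x, 19.4 and 18.9 on y) lie above those of the controls (4.59 and 5.59 on x, 13.4 and 10.1 on y).

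With each library weighted to the same makeup over the 6 clusters with at least 10 cells of sufficient depth in every library (mesenchyme-like, one cardiomyocyte-like, hepatoblast-like, erythroid-like, 4 and 12), the shares called S were 33.0% and 32.6% in control and 30.3% and 29.1% in DUX-pulsed libraries (difference of means -3.12 points, exact permutation p = 0.333). It was -6.77 points with finer clusters (Leiden resolution 2). For cells thinned to 10000 UMIs the weighted S shares were 38.9% and 28.1% in control and 31.1% and 29.0% in DUX-pulsed libraries, which overlap. Of all cells the 6 clusters covered 19.2% and 14% in the control libraries, against 56.5% and 65.4% after the DUX pulse. Within the same clusters without weighting the S shares were 34.4% and 29.0% against 31.7% and 30.9%, which overlap. Weighted G2/M shares were 34.0% and 29.8% against 33.4% and 26.9%, which also overlap (difference -1.75 points, and 2.72 points with clusters made without any gene that followed the members across cells).

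Within cardiomyocyte-like cells the G2 and M genes were higher in DUX-pulsed libraries. Of 44 members 19 rose and 0 fell, 17 of the 25 G2 and M genes and 2 of the 19 S phase genes (Rrm1 and Rrm2), with edgeR's test on summed counts over 11382 genes, of which 8.79% were called higher. The median fold change was 0.72 over the G2 and M genes and 0.24 over the S phase genes, against -0.0019 over all tested genes. The 2 groups did not overlap for 24 of the 25 G2 and M genes, all higher, and for 57.7% of all tested genes.

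Ccnb1 stood at 35.6 and 34.6 CPM in control and 96.8 and 106 in DUX-pulsed cardiomyocyte-like cells (1.53 ± 0.206, edgeR adjusted p = 1.74e-04), beside a neighbours' median of 0.95. Mki67 rose from 46.9 and 50.2 to 120.5 and 121 (1.32 ± 0.204, edgeR adjusted p = 4.73e-04). Top2a rose from 122 and 126 to 238 and 269.6 (1.03 ± 0.203, edgeR adjusted p = 0.00265). For each the replicates of a group lay close together and far from the other group. Ccna2 rose from 40.3 and 34.96 to 76.4 and 100.2 (1.23 ± 0.218). Kif11, the motor that pushes spindle poles apart, rose from 13.1 and 19.3 to 37.1 and 43.1 (1.32 ± 0.243).

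Aurkb, the kinase that corrects attachments of chromosomes to the spindle, rose from 17.5 and 11.3 to 35.1 and 30.04 CPM (1.17 ± 0.252). Cdca2 rose from 11.9 and 15.3 to 29.7 and 31.1 (1.17 ± 0.240), although it fell over the whole culture. Cenpe, a kinetochore motor, and Cenpf, a kinetochore protein, rose by 0.95 ± 0.203 and 0.88 ± 0.204. Of S phase, Rrm2 had the highest fold change of the 44, from 8.12 and 8.37 to 39.7 and 26.03 (1.996 ± 0.285, edgeR adjusted p = 2.65e-04). The other 9 called members were Bub1, Ccnb2, Cdc20, Cdca3, Kif20b, Kif22, Nusap1, Rrm1 and Ube2c, with fold changes of 0.66 to 0.93. By contrast Pcna was at 17.2 and 13.1 against 19.5 and 10.9 and Mcm2 at 21.2 and 28.04 against 29.98 and 30.2, and neither passed. Cdk1 (110.0 and 106 against 144 and 118) and Plk1 (20.6 and 20.8 against 33.04 and 30.04; edgeR adjusted p = 0.0698) were higher in both DUX-pulsed libraries without passing.

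Of the lists outside the members, 25 of 49 other G2 and M genes rose and 0 fell, as did 9 of 31 other S phase genes. Hmmr, a spindle protein, rose from 37.2 and 41.5 to 95.6 and 91.5 CPM (1.25 ± 0.204, edgeR adjusted p = 6.81e-04), and Foxm1, an activator of G2 and M genes, from 4.69 and 4.37 to 11.05 and 10.5 (1.24 ± 0.325). Of 6 CDK inhibitors tested, 3 rose, Cdkn1a among them (72.5 and 46.6 against 116 and 99.3; 0.85 ± 0.231).

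Different clusters hold most of this class in the 2 groups. Cluster 1, led by Tdgf1, Ankrd1 and Acta2, held 207 of the class's 250 cells in the controls but 70 of 704 after the DUX pulse. The other 43 and 634 were in cluster 2, whose leading genes were Myl3, Tnni3 and Myl2, and its control cells had a median of 2256 UMIs against 23886. Fitted alone, cluster 1 gave 2 members higher (Ccnb1 and Aurkb) of 43 tested and 0 lower, against 2.4% of 9317 genes called higher. All 25 G2 and M members had fold changes above 0 in this fit, with a median of 0.45. Of 18 S phase members tested, 8 were above 0 and 10 below, with a median of -0.07. There Mki67 was at 43.8 and 51.8 CPM in control and 33.5 and 107 in DUX-pulsed libraries, with DUX-pulsed replicate 1 below the controls and replicate 2, of 26 cells, above them. Cluster 2 had too few control cells to test. The difference between clusters 1 and 2 and the difference between groups therefore cannot be told apart for most of these genes.

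Cardiomyocyte markers summed to 513 and 493 per 10000 UMIs in the control cells of the class and to 534 and 499 in the DUX-pulsed ones, with 0 of 17 markers at 0. The 9 smooth muscle markers summed to 128 and 140 against 49.6 and 42.1, and 14 pluripotency markers, 2 to 5 of them at 0 in a library, to 11.8 and 12.2 against 2.53 and 1.98. A list of 9 primed epiblast markers gave similar sums, 10.9 and 11.5 against 2.54 and 2.06. The only gene common to these last lists is Tdgf1, a leading gene of cluster 1. How much of the sums came from Tdgf1 alone was not examined, so they do not show a shift of the lists as a whole. Median depth was 23091 and 24193.5 against 22152 and 27031 UMIs, and the median mitochondrial share 4.25% and 4.83% against 4.18% and 4.85%. The part of the smooth muscle and pluripotency genes in the result was not tested.

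The share of cardiomyocyte-like cells called G2/M was 19.5% and 12.2% in control and 28.5% and 23.2% in DUX-pulsed libraries (exact permutation p = 0.333), without overlap. The exact binomial 95% intervals of the nearest libraries did overlap. They were 12.9% to 27.6% in control replicate 1 (24 of 123 cells) and 18.2% to 28.8% in DUX-pulsed replicate 2 (60 of 259). The share called S was 10.6% and 14.3% against 9.5% and 11.97%, which overlap (difference -1.69 points, and 2.38 points for cells thinned to 10000 UMIs). In cluster 1 the G2/M shares were 17.5% and 13.0% against 18.2% and 28.0%, the last over 25 cells (95% interval 12.1% to 49.4%).

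Calls in the class depended in part on the settings. The count was 10 without control replicate 2, 13 without each of the other 3 libraries, and 8 when cells needed 1000 detected genes and no more than 5% mitochondrial UMIs. Ccna2, Ccnb1, Cdca2, Kif11, Mki67, Rrm2 and Top2a were called in the test above and in each of 10 alternatives.

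**Figure D4:**
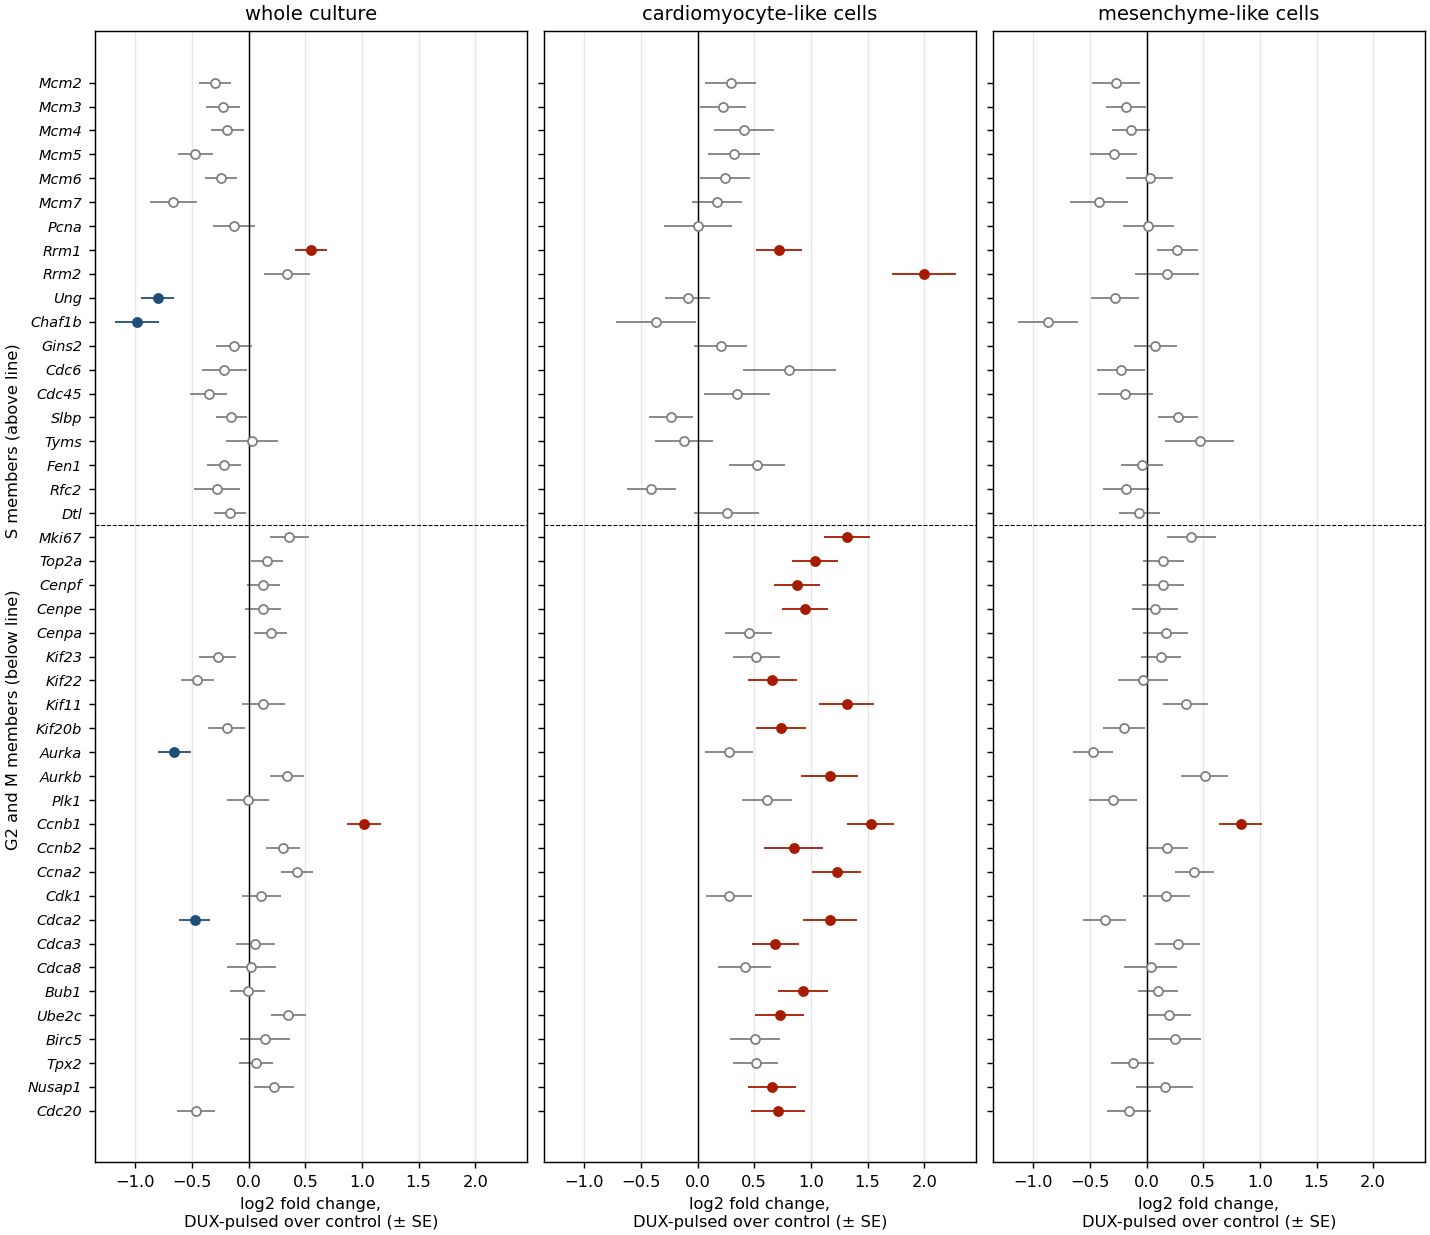
Log2 fold change (DUX-pulsed over control, ± SE) of each of the 44 members in the whole culture, in cardiomyocyte-like cells and in mesenchyme-like cells; filled red and blue points are called higher and lower by edgeR, and open points are not called. All 25 G2 and M points lie above 0 in cardiomyocyte-like cells, where Rrm2 reaches 1.996, and the mesenchyme-like points lie on both sides of 0.

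In mesenchyme-like cells 1 of 44 members rose and 0 fell, against 5.01% of 12056 genes called higher. That gene was Ccnb1 (65.3 and 70.4 against 134 and 107 CPM; 0.83 ± 0.188, edgeR adjusted p = 0.0291), with a neighbours' median of 0.85, and it was not called without control replicate 1 or without control replicate 2. Mki67 was at 154 and 142 against 231 and 159 and Top2a at 372 and 324 against 421 and 350.4. Medians were 0.15 over the G2 and M genes and -0.14 over the S phase genes. The median mitochondrial share was 4.78% and 4.97% in control and 3.18% and 3.55% in DUX-pulsed cells of the class, and its part in these values was not tested.

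In cluster 12, led by Sox2, 0 of 44 members were called by edgeR (8 at an unadjusted p under 0.05), against 2.1% of 10541 genes. The median over its S phase genes was -0.30, and without control replicate 2 edgeR called 6 members lower. Its share called S was 55.3% and 60.6% in control and 40.7% and 25% in DUX-pulsed libraries, the last over 36 cells (exact permutation p = 0.333). Thinned to 10000 UMIs the shares were 64.8% and 46.4% against 43.3% and 38.7%, and without thinning 53.8% and 46.5% against 38.6% and 29.2%, and the gap was narrower in both. In the shallow cluster 11 edgeR called 0 of 42 members tested (8 at an unadjusted p under 0.05), against 1.91% of 4503 genes.

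The difference of the 2 classes' responses was tested directly, as an interaction of group and class with the library as a block, a test added after the class results were seen. Of 44 members 16 differed, all with a higher fold change in cardiomyocyte-like than in mesenchyme-like cells, against 9.83% of 10925 genes in either direction by edgeR. They were 14 G2 and M genes and 2 S phase genes. Rrm2 differed by 1.84 ± 0.231 (edgeR adjusted p = 7.57e-04) and Top2a by 0.89 ± 0.161 (edgeR adjusted p = 0.00652). The same split of the cardiomyocyte-like class over clusters 1 and 2 enters this test.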

How the data were processed

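Single-cell RNA was captured with the 10x Genomics system in 4 libraries, 2 per group. Per the submitters' processing notes, Cell Ranger 2.2.0 and STAR were used with build mm10. The deposited table holds the authors' UMI counts per gene and cell, neither normalized nor scaled, and cells were assigned to libraries by the prefix and number in their names. Members and lists were chosen with earlier results of these data known.

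Kept cells were clustered with scanpy 1.11.5 (2000 variable genes, 30 components, Leiden resolution 1) without 124 cell cycle genes; a class is named from at least 4 markers among its 30 leading genes. Scrublet called 37 of 8876 cells and so did not work as a filter; the 5% with the highest scores were left out as an alternative. Counts were summed by library, and by class and library, and tested with edgeR 4.0.16 (TMM, at least 10 counts in 2 libraries and 40 in all, quasi-likelihood test, Benjamini-Hochberg 0.05); DESeq2 1.42.0 was an alternative. The script was tested on simulated data. Phases came from scanpy's scores on cells thinned to 5000 UMIs. The library totals bound the precision: the scarcest whole-culture member, Cdc6, had 475 to 1658 UMIs in a library. Neighbour medians use GENCODE vM21 positions. P-values measure the spread between libraries only. Values were given in full for the called members and for Mcm2, Pcna, Rrm2, Mki67, Top2a, Cdk1, Ccnb1 and Plk1, within a class for up to 10 called members, and of each other list for called genes. Mcm5 and Mcm7, the class values named beyond this and the genes of the printed promoters were chosen after their values were seen. The fit of cluster 1 alone, the test between classes, the wider bar on cell cycle genes, the doublet alternative within classes and the rule by UMIs were added after the data were seen. The whole-culture result of the list of other S phase genes is not reported here.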

Additional observations from a re-analysis of the deposited data

Results flagged for a closer look

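The response of 16 members to the DUX pulse differed between 2 cell classes of the same libraries, by the test of the difference itself (edgeR, interaction of group and class with the library as a block, adjusted over all 10925 genes tested). The log2 fold change was higher in cardiomyocyte-like than in mesenchyme-like cells in all 16. For the S phase genes the difference was 1.84 for Rrm2 and 0.60 for Mcm7. For the mitotic kinases and cyclins it was 0.92 for Plk1, 0.75 for Aurka, 0.82 for Bub1, 0.79 for Ccna2 and 0.70 for Ccnb1. The kinetochore and spindle genes differed by 0.88 for Cenpe, 0.74 for Cenpf, 0.99 for Kif11, 0.95 for Kif20b and 0.64 for Tpx2. The remaining values were 1.55 for Cdca2, 0.94 for Mki67, 0.89 for Top2a and 0.87 for Cdc20. Plk1, Tpx2, Aurka and Mcm7 were not called in either class alone. Clusters 1 and 2 of the cardiomyocyte-like class were unequally filled in the 2 groups, and their part in these differences was not tested.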

How the results depend on the processing

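Counts of called members were moved by more than 1.5 times, and the cause was not tested. Over the whole culture (2 higher, 4 lower), members higher were 1 without TMM and 1 without shifted regions and chromosome Y; members lower were 7 with DESeq2, 2 with a stricter cell filter (1000 detected genes, no more than 5% mitochondrial UMIs) and 2 without shifted regions; leaving out 1 library gave 1 to 2 higher and 0 to 5 lower. In cardiomyocyte-like cells (19 higher) the stricter cell filter gave 8 and leaving out 1 library 10 to 13. In mesenchyme-like cells (1 higher, 0 lower), higher were 0 without TMM and 0 with the stricter filter, lower were 1 and 1, and leaving out 1 library gave 0 to 3 higher and 0 to 2 lower. In cluster 12 leaving out 1 library gave 0 to 6 lower, and in cluster 11 there was 1 lower without TMM. Without TMM the median of all genes in cardiomyocyte-like cells was -0.10, and 13 members rose. Of all genes called over the whole culture 58.6% were higher.

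A replicate block, fitted although 2 numbers in 2 groups cannot show that numbers pair the libraries (correlation of same-numbered deviations 0.35), gave 6 higher and 10 lower over the whole culture, 26 higher and 1 lower in cardiomyocyte-like, 5 and 4 in mesenchyme-like cells, 1 higher and 7 lower in cluster 12 and 2 lower in cluster 11.

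The S share difference of -13.3 points was -5.28 with the wider gene lists, -8.65 at a score cut of 0.1, -10.4 with the stricter filter and -16.1 by at least 3 UMIs. At equal makeup (-3.12) it was -3.94 with cell cycle genes in the clustering, -5.23 and -6.77 at resolutions 0.5 and 2, and the G2/M difference (-1.75) was 2.72 with the wider bar. In cardiomyocyte-like cells the S difference (-1.69) was 2.38 at 10000 UMIs. Leaving out 1 library, the whole-culture differences ran from -14.3 to -12.4 for S and -0.369 to 8.41 for G2/M, log2 ratios of summed levels from -0.40 to -0.21 and -0.047 to 0.15, equal-makeup differences from -3.68 to -2.55 and -5.03 to 1.53, and cardiomyocyte-like differences from -3.55 to 0.165 and 6.32 to 13.6.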
